A study of Mus musculus with 17 samples.

Results

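Cholesterol synthesis and its transcriptional control were described through 26 genes chosen by name. They were 2 genes that lead from acetyl-CoA towards mevalonate, 6 from mevalonate to the isoprenoids and 3 that make squalene and lanosterol. The others were 8 from lanosterol to cholesterol, 6 for the transcription factor SREBP2 and its processing, and 1 sterol transfer gene. All 26 were found among the 49315 genes of the liver table and among the 15632 genes listed in the hepatocyte files, and all 26 passed the filter on low counts in both. RNA was sequenced in 8 liver libraries, 4 labelled WT and 4 labelled SMSrKO, from mice given a high-fat diet with fructose in the drinking water for 16 weeks. It was also sequenced in 9 libraries of primary hepatocytes freed with collagenase from mice aged 2 months, 3 labelled WT, 3 Sms1/Sms2-dKO (here dKO) and 3 Sms1/Sms2/Smsr-tKO (here tKO). SMS1 and SMS2 are the sphingomyelin synthases, encoded by Sgms1 and Sgms2, and SMSr is their relative encoded by Samd8, which makes ceramide phosphoethanolamine. The sources used here do not give the age of the mice on the diet, the diet of the hepatocyte donors, the alleles or any promoter driving a Cre recombinase.

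Cells make cholesterol from acetyl-CoA through mevalonate, farnesyl diphosphate, squalene and lanosterol. When sterols in the endoplasmic reticulum are low, the escort protein SCAP carries SREBP2 to the Golgi, where the proteases encoded by Mbtps1 and Mbtps2 release its active part, which raises transcription of nearly every enzyme of the route. When sterols are plentiful, INSIG1 and INSIG2 hold SCAP back, and Insig1 is itself an SREBP target. Sphingomyelin binds cholesterol in the plasma membrane, and the liver is a major site of cholesterol synthesis.

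Depth was 24391627 to 47351126 counts in liver libraries and 9221487 to 9665314 rounded expected counts in hepatocyte libraries, and member counts ran from 28 to 24254 in liver and from 69 to 3411 in hepatocytes. The biological coefficient of variation over all genes was 20.3% in liver and 3.52% in hepatocytes. Replicates differed beyond sampling noise in every pair, but the labels do not say that each library came from its own animal, and a p-value then reflects spread among libraries, which may be technical. Apart from Sgms2 in hepatocytes, no targeted gene read lower in knockout-labelled libraries than in WT. Samd8 read 38.0 to 51.7 CPM (counts scaled to library size) in WT liver and 50.3 to 59.0 in SMSrKO, and 66.0 to 73.1 in WT, 75.1 to 86.9 in dKO and 97.6 to 103 in tKO hepatocytes. Sgms1 read 45.9 to 52.2 CPM in WT, 85.1 to 96.2 in dKO and 55.6 to 62.2 in tKO hepatocytes, and Sgms2 read 175 to 191, 133 to 164 and 144 to 157. Which exons were deleted is not given, so these counts over whole genes do not check the labels, and groups are named as labelled. The labels name subcutaneous fat as the RNA source for the SMSrKO experiment and liver as its tissue. Defining fat markers were near 0 in all 8 of those libraries (Adipoq at most 0.0663 CPM), while Alb read 35390.5 to 62533.5 CPM.

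Promoter windows from RefSeq (build GRCm38.p6), reaching 250 bases before and 50 after an annotated start site, were at hand for 22 of the 26 genes, as 28 windows. The 250 bases before the start site are shown for 4 genes, chosen after their values were seen. Insig1 and Mvd stood highest in liver library WT 1 relative to the other WT libraries among members with a window, Hmgcs1 stood low there and rose in hepatocytes, and Ebp fell in hepatocytes. Insig1 is given from chr5:28071162-28071411 on the forward strand, Mvd from chr8:122443423-122443672 on the reverse strand, Hmgcs1 from chr13:119690101-119690350 on the forward strand and Ebp from chrX:8193513-8193762 on the reverse strand. Capitals mark matches on either strand to CACNCCAC (the core of a sterol regulatory element, which SREBPs bind), to CCAAT (bound by NF-Y, a usual partner of SREBPs) and to CACGTG (an E-box).
Insig1: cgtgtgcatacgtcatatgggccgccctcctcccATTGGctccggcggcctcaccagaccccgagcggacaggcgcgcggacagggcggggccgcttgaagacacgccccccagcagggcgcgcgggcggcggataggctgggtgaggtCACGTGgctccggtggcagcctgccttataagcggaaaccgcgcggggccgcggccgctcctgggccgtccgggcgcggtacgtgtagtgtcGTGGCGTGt
Mvd: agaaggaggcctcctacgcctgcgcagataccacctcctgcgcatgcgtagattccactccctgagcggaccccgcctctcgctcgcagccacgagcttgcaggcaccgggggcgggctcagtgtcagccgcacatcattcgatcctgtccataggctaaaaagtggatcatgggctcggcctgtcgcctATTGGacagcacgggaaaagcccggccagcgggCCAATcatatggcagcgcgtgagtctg
Hmgcs1: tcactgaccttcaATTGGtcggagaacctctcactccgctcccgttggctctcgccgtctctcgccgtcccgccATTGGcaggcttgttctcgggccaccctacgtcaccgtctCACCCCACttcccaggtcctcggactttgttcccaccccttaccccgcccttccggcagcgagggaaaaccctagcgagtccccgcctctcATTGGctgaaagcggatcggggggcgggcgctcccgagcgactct
Ebp: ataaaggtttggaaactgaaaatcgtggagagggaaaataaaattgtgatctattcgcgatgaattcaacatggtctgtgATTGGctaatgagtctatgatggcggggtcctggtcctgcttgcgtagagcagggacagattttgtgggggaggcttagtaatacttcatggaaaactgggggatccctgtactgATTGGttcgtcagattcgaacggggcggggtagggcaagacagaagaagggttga
Searched on both strands in the full windows of 300 bases, the longer TCACNCCAC was found in 1 of the 28 windows, that of Hmgcs1, against 1.24% of all 32851 promoter windows, and it contains CACNCCAC. CACNCCAC was found in 3 windows, those of Hmgcs1, Insig1 and Acat2 (10.7%, against 6.24% of all). CCAAT was found in 18 windows (64.3%, against 37.4% of all), including those of the 4 genes shown. The Sp1 box GGGCGG was found in 22 windows (78.6%, against 35.7% of all), and CACGTG in 6 (21.4%, against 7.15%), among them that of Insig1. A match describes letters and not binding.

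The order of the levels differed between the tables. Values per gene length were compared, as TPM in liver and FPKM in hepatocytes, which both scale reads by gene length and library size. In WT liver the highest members were the late desaturase gene Sc5d at 135 ± 24.6 TPM (SD, n = 4), Insig1 at 134 ± 149, the sterol isomerase gene Ebp at 124 ± 12.4 and Insig2 at 98.3 ± 17.4. Without WT 1, Insig1 averaged 60.3 TPM. These 4 overlapped as neighbours in the order, and Insig2 was parted from the next, Hmgcs1 at 60.5 ± 9.99. At the low end stood Idi1, the isopentenyl diphosphate isomerase gene, at 1.49 ± 1.05 TPM, Sqle, the squalene epoxidase gene, at 2.27 ± 1.36, and Mbtps2 at 2.39 ± 0.102. In WT hepatocytes Fdps, the farnesyl diphosphate synthase gene, was highest at 214 ± 10.04 FPKM (SD, n = 3), then Msmo1, which acts in C4 demethylation, at 128 ± 4.60, Insig1 at 116 ± 6.53, Sc5d at 99.9 ± 2.82 and Hmgcs1, the cytosolic HMG-CoA synthase gene, at 71.3 ± 2.01. Idi1 was ninth in WT hepatocytes, at 50.3 ± 0.542 FPKM, and last of the 26 in WT liver, while Fdps was first in hepatocytes and 16th in liver. Of the 25 pairs of neighbours in the order, 23 overlapped in WT liver and 9 in WT hepatocytes. The tables differ in preparation, gene models and unit, and perhaps in diet, which is not given for the hepatocyte donors. These cannot be told apart.

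**Figure D1:**
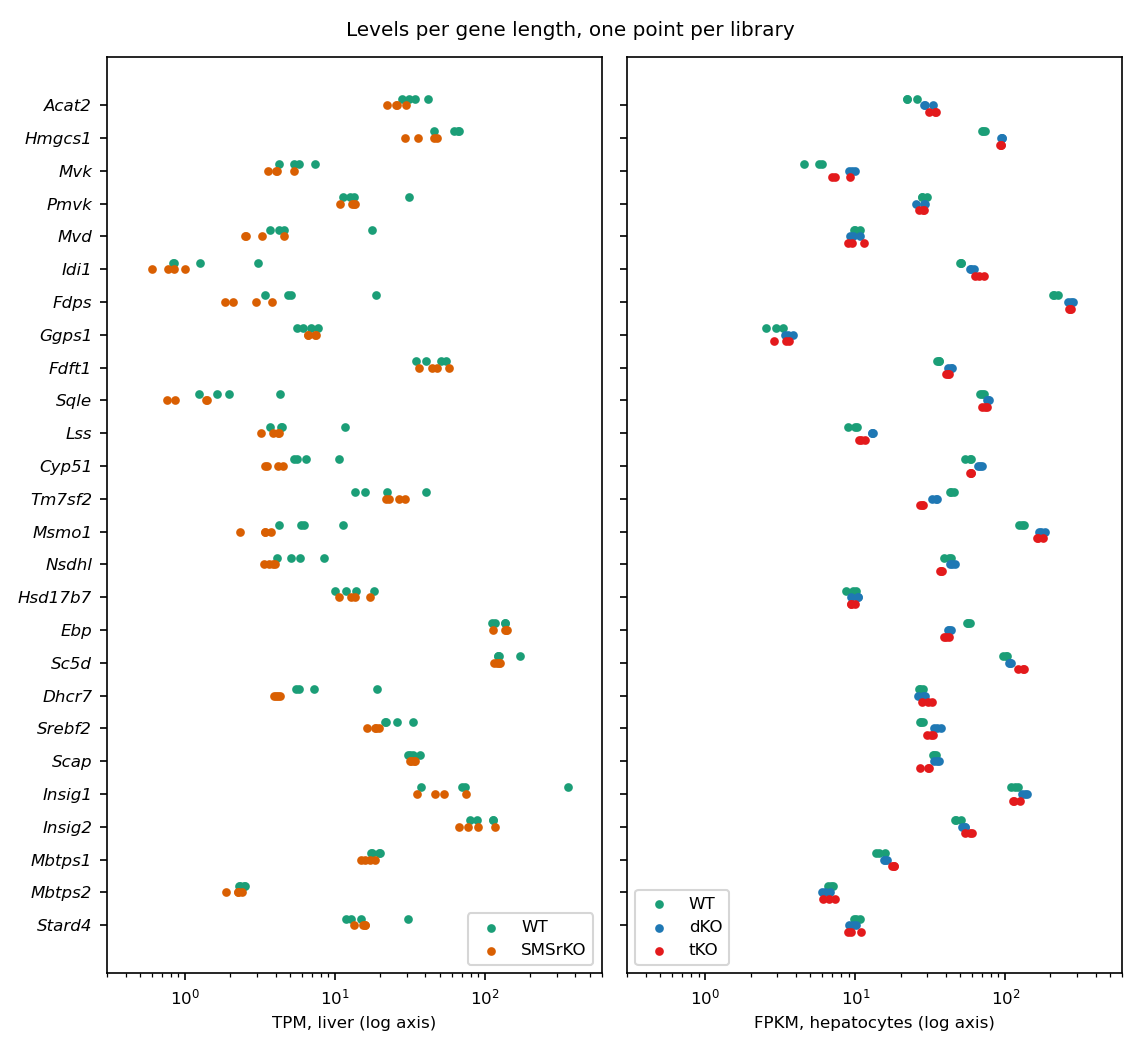
Levels of the 26 genes per gene length on log axes, TPM in liver at left (4 WT and 4 SMSrKO libraries) and FPKM in hepatocytes at right (3 libraries a group), with 1 point per library. Fdps, Idi1 and Sqle lie further left in the liver panel than in the hepatocyte panel, and the lone high Insig1 point in liver is WT 1.

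Among liver libraries, WT 1 stood apart for these genes, and its counts also differed most from its replicates over all genes. Over genes with at least 20 counts in a pair, the chi-square per degree of freedom was 168 to 185 in pairs with WT 1. It was 26.1 to 56.0 in the other WT pairs and 23.9 to 46.0 in SMSrKO pairs. This measure also grows with depth. Of the 26 members, 18 were above all 3 other WT libraries in WT 1, 4 were below all of them (Hmgcs1, Fdft1, Insig2 and Ggps1) and 4 lay within (Tm7sf2, Scap, Acat2 and Mbtps1), while of all 15820 tested genes 33.0% were above and 32.6% below. At 2 times the mean of WT 2 to 4 or more were 11 members, and 3.29% of all tested genes, and the median ratio was 1.60 for members and 0.996 for all. The 26 genes summed to 2048 CPM in WT 1, 1263 to 1407 in WT 2 to 4, and 1159 to 1213 in SMSrKO. Insig1 read 522 CPM in WT 1 and 48.8, 105 and 93.5 in WT 2, 3 and 4, which is 6.35 times their mean. Mvd, the mevalonate diphosphate decarboxylase gene, read 15.6 CPM against 2.88, 3.65 and 3.65. Fdps read 37.1 against 6.06, 9.48 and 9.17. These 3 had the highest ratios, and no other liver library came near WT 1 for them. The ratio to the mean of WT 2 to 4 was 3.36 for Idi1, 3.35 for Dhcr7 (the enzyme of a final reduction to cholesterol), 3.01 for Lss (lanosterol synthase), 2.87 for Sqle, 2.73 for Pmvk, 2.503 for Stard4, 2.24 for Msmo1 and 2.01 for Cyp51. It was 1.54 for Srebf2, 0.977 for its escort Scap, 0.990 for Mbtps1 and 0.821 for Insig2. The entry gene Hmgcs1 had a ratio of 0.760, and Fdft1, the squalene synthase gene, 0.762. WT 1 was thus not uniformly high along the route. Srebf1, the gene of the related factor of fatty acid synthesis, read 1481 CPM in WT 1 and 400 to 494 in WT 2 to 4. The list of 10 lipogenesis genes that holds Srebf1 did not stand apart as a sum. It came to 17433 CPM in WT 1, within the 5605 to 18132.5 of WT 2 to 4. A list of 10 other sterol-responsive genes did, at 2516 CPM against 1299 to 1798. Genes of uptake, trafficking and esterification were also above (3249, against 2854 to 3143). Electron donors and partners (2898, against 3372 to 3918) and sterol sensing genes (1382, against 1721 to 1818) were below. Sums for isoprenoid branches, LXR and efflux, and bile acids lay within. WT 1 was also the deepest library, and its marker sums lay outside the range of WT 2 to 4 for several cell types. It was lowest for 5 erythroid markers (42.9 CPM, against 94.0 to 155), 5 cholangiocyte markers (32.5, against 71.2 to 114) and 8 stellate cell markers (274, against 341 to 622). It was highest for 8 macrophage markers (1071, against 846 to 973) and 8 hepatocyte markers (69047, against 55170 to 65025). The part of these differences in its levels was not tested.

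**Figure D2:**
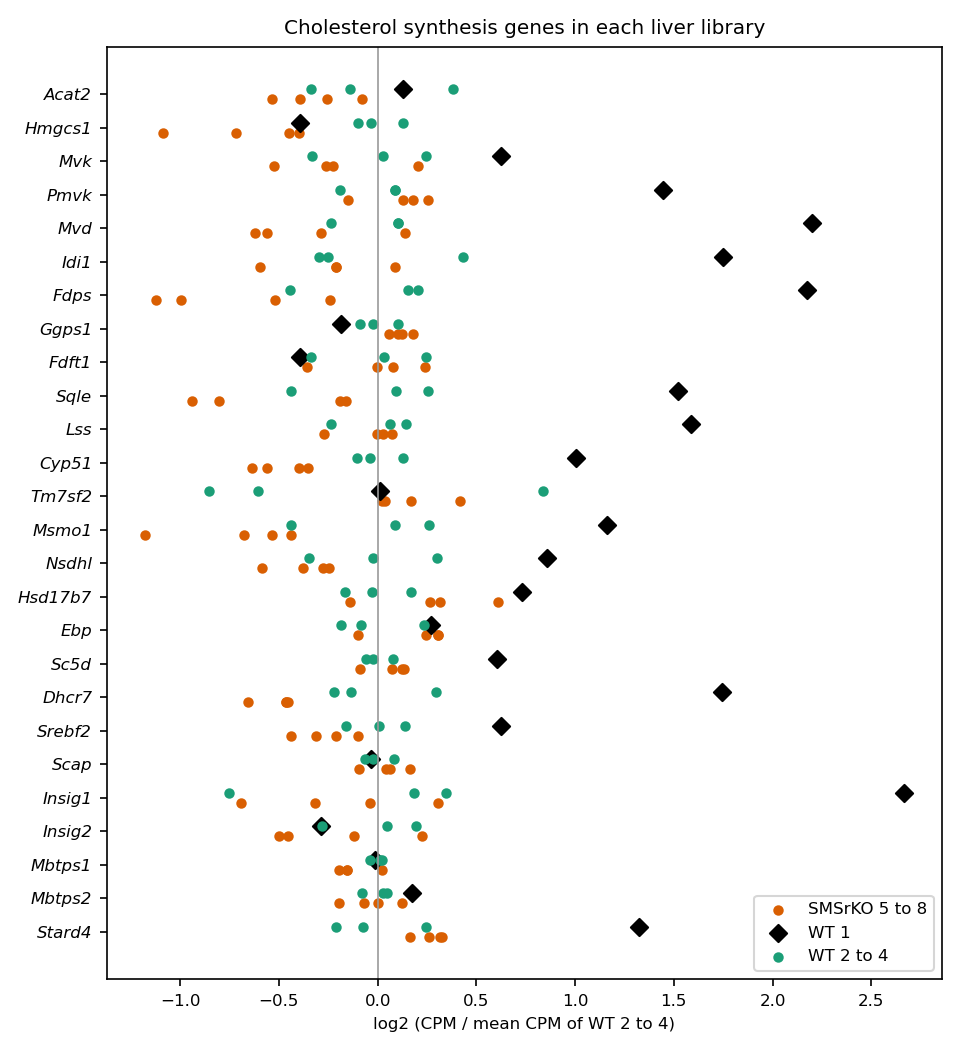
Each of the 26 genes in each liver library, as log2 of its CPM over the mean CPM of WT 2 to 4, with WT 1 as black diamonds, WT 2 to 4 in green and SMSrKO 5 to 8 in orange. WT 1 lies above the other WT libraries for 18 genes, while for Hmgcs1, Cyp51, Msmo1 and Dhcr7 every SMSrKO library lies below every WT library.

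The comparison of SMSrKO with WT liver addressed loss of SMSr on the high-fat, high-fructose diet. No member passed edgeR's quasi-likelihood test with Benjamini-Hochberg adjustment over all genes, where 0.234% of all 15820 genes passed, and 0 passed without WT 1, where 0.682% did. At an unadjusted p under 0.05, 8 members stood lower and 0 higher, with 13.1% of all genes under that p in either direction, and without WT 1 the counts were 6 and 1 (14.6% of all). DESeq2 called 1 member lower, Msmo1 (adjusted p = 0.0273), where it called 2.53% of all genes. The median log2 difference of the 26 was −0.39 with all libraries and −0.16 without WT 1, beside −0.01 for all genes in both. Below 0 were 20 members with all libraries (52.2% of all genes) and 17 without WT 1 (51.8%). Each SMSrKO value was below each WT value for 4 members, Hmgcs1, Cyp51, Msmo1 and Dhcr7, with and without WT 1, where 4.32% and 7.23% of all genes were so placed.

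At the entry to the route, Hmgcs1 read 70.4, 90.3, 101 and 86.3 CPM in WT 1 to 4 and 56.3, 70.1, 43.6 and 67.7 in SMSrKO 5 to 8. The lowest WT value, in WT 1, lay just above the highest SMSrKO value. The log2 difference was −0.55 ± 0.159 (SE; adjusted p = 0.198), and −0.64 ± 0.155 without WT 1 (adjusted p = 0.108). Hmgcs1 was thus the member of these 4 whose difference did not shrink without WT 1. Acat2, which makes acetoacetyl-CoA, stood at −0.34 ± 0.156 and −0.31 ± 0.172. Its reads are uncertain because of a close copy, Acat3.

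From mevalonate to the isoprenoids, Mvk stood at −0.37 ± 0.222 and Pmvk at −0.42 ± 0.345, and without WT 1 at −0.19 ± 0.200 and 0.11 ± 0.134. These encode the kinases that phosphorylate mevalonate in turn. Mvd stood at −1.23 ± 0.557 and at −0.29 ± 0.227 without WT 1. Idi1 stood at −0.90 ± 0.450 and at −0.21 ± 0.273 without WT 1, on levels of 0.996 to 5.06 CPM in all 8 libraries. Fdps read 3.78, 4.13, 5.75 and 6.98 CPM in SMSrKO 5 to 8, which overlapped WT 2 at 6.06. Its difference was the furthest from 0 of the 26 with all libraries, at −1.58 ± 0.582 (adjusted p = 0.310), and was −0.66 ± 0.243 without WT 1 (adjusted p = 0.252). Ggps1, which makes the geranylgeranyl donor on a side branch, stood at 0.16 ± 0.111.

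Of the genes that make squalene and lanosterol, Sqle stood at −1.04 ± 0.408, or −0.47 ± 0.255 without WT 1. Lss stood at −0.63 ± 0.386, or −0.04 ± 0.121. Fdft1 stood at 0.09 ± 0.166, or 0.00 ± 0.169. Its exons share 767 bases (26.8% of their length) with Ctsb on the opposite strand, which reached 40162 counts, and the strand setting of the counts is not given, so Fdft1 is uncertain.

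Between lanosterol and cholesterol, Cyp51, the lanosterol demethylase gene, read 22.2, 10.3, 10.8 and 12.1 CPM in WT 1 to 4 and 7.52, 7.12, 8.40 and 8.67 in SMSrKO 5 to 8. All 4 SMSrKO libraries were below all 4 WT libraries, and the difference was −0.81 ± 0.237 (adjusted p = 0.209), or −0.48 ± 0.122 without WT 1 (adjusted p = 0.114). Msmo1 read 33.0, 10.87, 17.6 and 15.7 CPM in WT and 10.2, 10.85, 6.50 and 9.21 in SMSrKO. WT 2 and SMSrKO 6 nearly touched, and the difference was −1.08 ± 0.325 (adjusted p = 0.222), or −0.69 ± 0.204 without WT 1. Dhcr7 read 52.7, 13.5, 19.3 and 14.4 CPM in WT and 11.4, 11.4, 11.5 and 9.97 in SMSrKO. The SMSrKO values lay close together under every WT value, and the difference was −1.18 ± 0.434 (adjusted p = 0.309), or −0.51 ± 0.134 without WT 1 (adjusted p = 0.122). Nsdhl, a partner of Msmo1 in C4 demethylation, stood at −0.64 ± 0.238, or −0.37 ± 0.175 without WT 1. The other late enzymes stood closer to 0: Hsd17b7 stood at 0.06 ± 0.213, Ebp at 0.13 ± 0.133, Sc5d at −0.11 ± 0.151 and the C14 reductase gene Tm7sf2 at 0.17 ± 0.343. Tm7sf2 ran from 20.04 CPM in WT 2 to 64.8 in WT 3, the widest spread of the 26 among WT 2 to 4 (coefficient of variation 68.6%), and its exons share 532 bases with Vps51 on the same strand.

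Among the regulators in liver, Srebf2 read 77.7, 45.1, 50.7 and 55.5 CPM in WT 1 to 4 and 47.0, 43.5, 37.2 and 40.7 in SMSrKO 5 to 8. Only SMSrKO 5 reached into the WT range, at WT 2, and the difference was −0.45 ± 0.158 (adjusted p = 0.278), or −0.26 ± 0.1003 without WT 1. Insig1 read 80.2, 51.0, 66.2 and 102 CPM in SMSrKO, within the range of WT 2 to 4. Its difference moved from −1.36 ± 0.713 with all libraries to −0.14 ± 0.321 without WT 1. Insig2 stood at −0.12 ± 0.177, Scap at 0.05 ± 0.0812, Mbtps1 at −0.11 ± 0.0744 and Mbtps2 at −0.08 ± 0.108. Stard4, which moves sterol between membranes, turned from −0.20 ± 0.319 to 0.27 ± 0.108 without WT 1, and Pmvk and Sc5d turned likewise, Sc5d to 0.06 ± 0.0880.

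**Figure D3:**
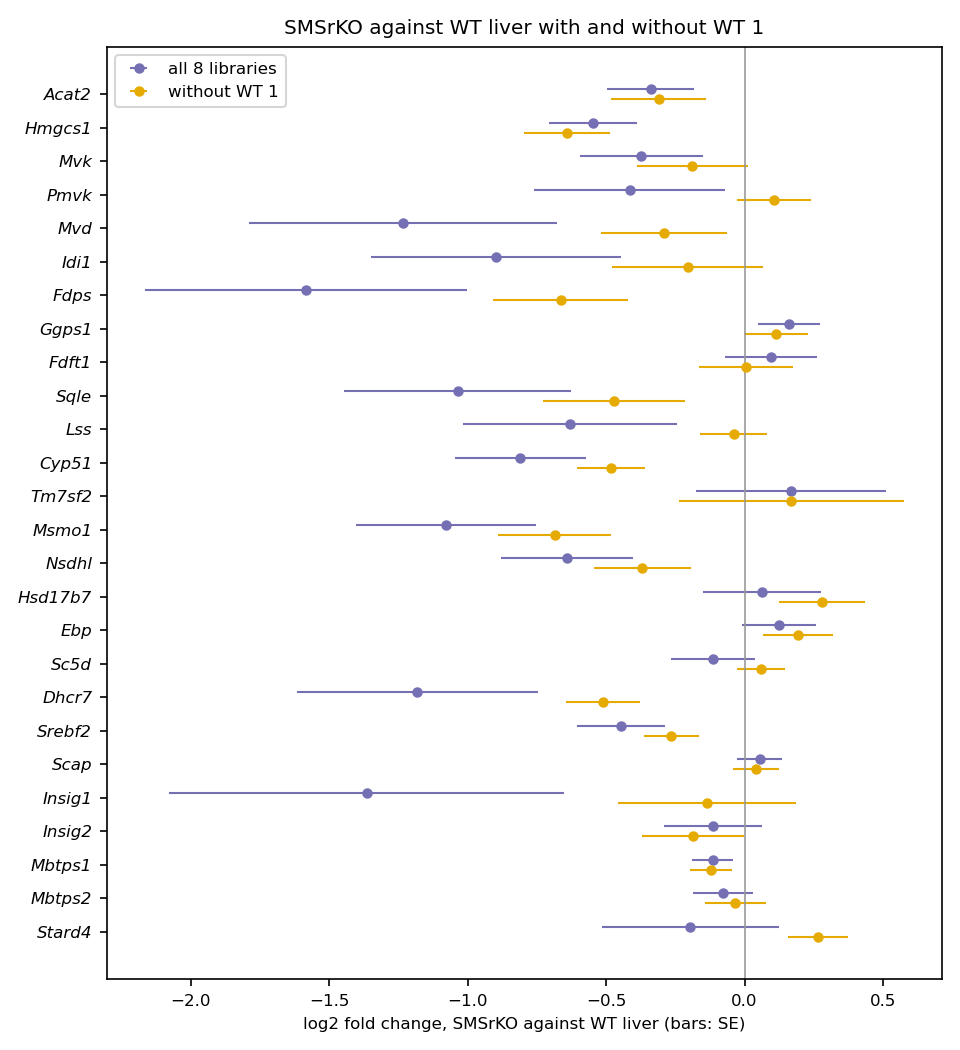
Log2 fold change of each gene in SMSrKO against WT liver with all 8 libraries (purple) and without WT 1 (yellow), with bars for the SE from edgeR. Insig1, Mvd, Fdps and Idi1 move furthest towards 0 without WT 1, while Hmgcs1 goes from −0.55 to −0.64, and none passed the adjusted test in either fit.

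The related arm of fatty acid synthesis was read in the same libraries. All 10 genes of lipogenesis under SREBP1 had a log2 difference below 0 in SMSrKO, with a median of −1.20, and 9 had one without WT 1, with a median of −0.37. Their sums overlapped between the groups, at 5605 to 18132.5 CPM in WT and 5348 to 13402 in SMSrKO. None passed with all libraries, and 1, the fatty acid synthase gene Fasn, fell by 0.72 ± 0.0914 on the log2 scale without WT 1 (edgeR adjusted p = 0.0119). In 9 other measured sterol-responsive genes 7 were below 0, or 5 without WT 1 (median −0.54, or −0.10 without WT 1). Of 14 genes of the isoprenoid branches 12 were below 0, or 8 without WT 1 (median −0.08, or −0.03). Of 11 genes of sterol sensing and degradation 6 were, or 7 without WT 1 (median −0.07, or −0.03). Of 8 electron donors and partners of the sterol enzymes 4 were in both fits (median −0.11, or −0.09). In each of these lists 0 passed in either fit. Of all genes, 52.2% were below 0 with all libraries and 51.8% without WT 1. Summed hepatocyte markers also moved with the groups: all 8 together read 55170 to 69047 CPM in WT and 73745 to 82331 in SMSrKO. With all libraries, 6 of the 8 had a log2 difference above 0 and 2 below, and 0 were called. Without WT 1, all 8 were above 0 and 2 were called higher. The 5 erythroid markers summed to 42.9 to 155 CPM in WT and 38.7 to 46.5 in SMSrKO, which overlapped only through WT 1, with 0 called with all libraries and 3 called lower without WT 1. Sums of 8 endothelial markers (485 to 615 and 414 to 553), 8 macrophage markers (846 to 1071 and 511 to 1277), 8 stellate cell markers (274 to 622 and 372 to 449), 5 cholangiocyte markers (32.5 to 114 and 48.8 to 72.4) and 5 lymphocyte markers (36.9 to 55.8 and 21.6 to 63.6) also overlapped between the groups. The part of these markers in the members' values was not tested, and in whole tissue fewer cells of a type cannot be told apart from less RNA per cell.

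Setting dKO against WT hepatocytes asked what follows the loss of SMS1 and SMS2 together. Most of the route rose slightly in libraries labelled dKO, from Hmgcs1 at the entry through Fdps and Lss to Msmo1, together with Srebf2 itself, while Tm7sf2 and Ebp fell. By edgeR with adjustment over all genes, 15 of the 26 rose and 2 fell (65.4% called), where 44.0% of all 11471 genes were called, 24.0% higher and 20.0% lower. The same 15 and 2 did not overlap between the groups, against 26.7% and 25.1% of all genes. The median log2 change of the members was 0.13, beside −0.01 for all genes. The 26 genes summed to 3018 to 3059 CPM in WT, 3479 to 3564 in dKO and 3361 to 3468 in tKO. With the dispersion of the liver libraries in place of the far smaller one of the hepatocyte libraries, 1 member (Mvk) was called higher and 0 lower, where 9.20% of all genes were called.

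Both genes at the entry rose in dKO. Hmgcs1 read 258, 245 and 246 CPM in WT and 329, 328 and 332 in dKO, a rise of 0.40 ± 0.0405 log2 (adjusted p = 4.12e-14). The 3 dKO values lay within a few CPM of each other and above every WT value. Acat2 rose by 0.37 ± 0.0683, and the close copy Acat3 leaves its reads uncertain in hepatocytes too.

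From mevalonate to the isoprenoids, Mvk read 7.56, 9.94 and 9.43 CPM in WT and 15.5, 15.2 and 16.4 in dKO. It had the largest change of the 26, 0.80 ± 0.130 log2 or 1.74-fold (adjusted p = 2.30e-07), on low counts. Fdps read 255, 276 and 259 CPM in WT and 321, 338 and 347 in dKO, a rise of 0.35 ± 0.0413, and Idi1 rose by 0.24 ± 0.0479. Ggps1 rose by 0.27 ± 0.111 at an adjusted p of 0.0427, a call lost when WT 1, WT 2, dKO 5 or dKO 6 was left out (adjusted p 0.0695 to 0.295). Pmvk at −0.05 ± 0.0803 and Mvd at −0.04 ± 0.108, the kinase and decarboxylase that follow Mvk, were not called.

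All 3 genes that make squalene and lanosterol rose in dKO. Lss read 63.3, 56.8 and 64.8 CPM in WT and 81.7, 83.5 and 81.8 in dKO, a rise of 0.42 ± 0.0601 (adjusted p = 8.97e-09). The groups were well apart. Fdft1 rose by 0.27 ± 0.0475 and Sqle by 0.13 ± 0.0443, and the Sqle call was lost without hepatocyte WT 2 (adjusted p = 0.0937) or dKO 5 (0.0761). The exon overlaps of Fdft1 and Tm7sf2 were examined in the liver gene models only. The strand setting is not given for the hepatocyte counts either, so both genes are uncertain there too.

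The late enzymes split in dKO. Msmo1 read 220, 235 and 228 CPM in WT and 306, 300 and 323 in dKO, a rise of 0.44 ± 0.0429 (adjusted p = 5.51e-15). Cyp51 rose by 0.25 ± 0.0420 and Sc5d by 0.10 ± 0.0434 (adjusted p = 0.0438), and the Sc5d call was lost without WT 2, WT 3, dKO 5 or dKO 6 (0.0872 to 0.206). Against them, Tm7sf2 read 61.7, 65.6 and 62.1 CPM in WT and 46.2, 49.4 and 50.0 in dKO, and fell by 0.38 ± 0.0649 (adjusted p = 8.55e-07). Ebp read 96.6, 98.7 and 93.9 CPM in WT and 73.9, 72.2 and 70.2 in dKO, and fell by 0.42 ± 0.0559 (adjusted p = 1.03e-09). In both, every dKO library was below every WT library. Nsdhl at 0.08 ± 0.0546, Hsd17b7 at 0.09 ± 0.0721 and Dhcr7 at 0.01 ± 0.0593 were not called.

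Among the regulators in dKO, Srebf2 read 126, 123 and 127 CPM in WT and 167, 160 and 152 in dKO, a rise of 0.35 ± 0.0485 (adjusted p = 3.29e-09). Insig1 read 287, 306 and 320 CPM in WT and 353, 367 and 339 in dKO, a rise of 0.21 ± 0.0428. Insig2 rose by 0.14 ± 0.0511 (adjusted p = 0.0169), a call lost without WT 2, WT 3, dKO 5 or dKO 6 (0.0666 to 0.102). Scap at 0.03 ± 0.0492, Mbtps1 at 0.11 ± 0.0613, Mbtps2 at −0.13 ± 0.0824 and Stard4 at −0.09 ± 0.0689 were not called. So the factor and both of its INSIG anchors rose in RNA, while its escort and proteases did not pass the test.

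**Figure D4:**
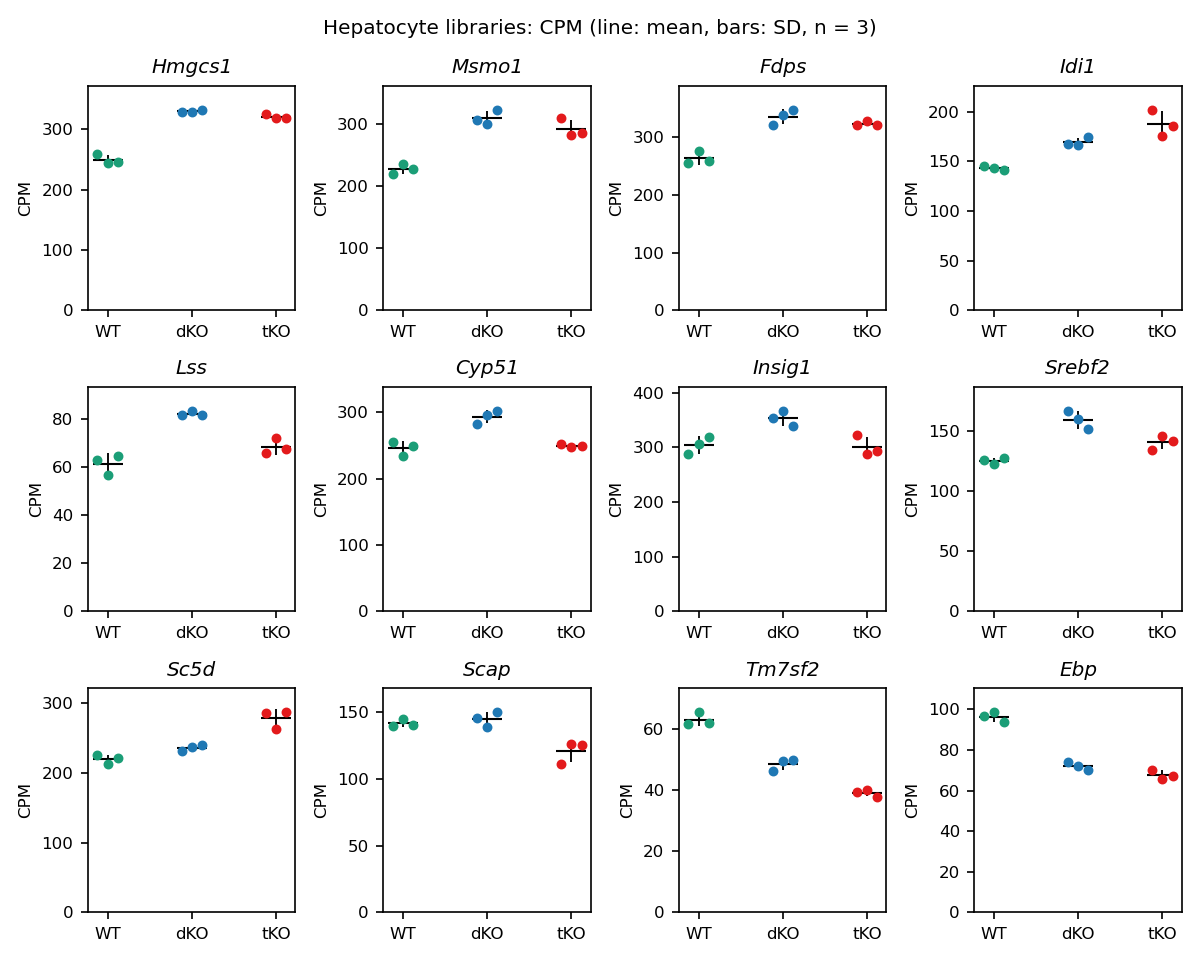
CPM of 12 of the genes in the 9 hepatocyte libraries (WT green, dKO blue, tKO red), with black lines for the mean and bars for the SD of 3 libraries and each axis starting at 0. Hmgcs1, Msmo1 and Fdps are higher in both knockouts, Cyp51 and Insig1 are higher in dKO alone of the groups, Sc5d and Idi1 are highest in tKO, and Tm7sf2 and Ebp are highest in WT.

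The comparison of tKO with WT hepatocytes addressed loss of SMS1, SMS2 and SMSr together, and it shares its WT libraries with the comparison above. Of the 26 members 12 rose and 4 fell (61.5% called), where 47.4% of all genes were called, 25.6% higher and 21.8% lower. The 12 and 4 also had groups that did not overlap, against 27.8% and 25.6% of all genes. The median log2 change was 0.13, beside 0.00 for all genes. With the dispersion of the liver libraries, 0 members were called higher and 1 (Tm7sf2) lower, where 10.6% of all genes were called.

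At the entry, Acat2 rose by 0.49 ± 0.0671, and Hmgcs1 read 325, 318 and 319 CPM in tKO, a rise of 0.36 ± 0.0405 (adjusted p = 2.25e-12). Of the isoprenoid genes, Mvk rose by 0.51 ± 0.134, with 11.5, 15.1 and 11.8 CPM in tKO. Idi1 read 145, 143 and 141 CPM in WT, 167, 166 and 174 in dKO and 202, 175 and 185 in tKO, a rise over WT of 0.39 ± 0.0473. The 3 groups of Idi1 did not overlap. Fdps rose by 0.30 ± 0.0413, while Pmvk (−0.07 ± 0.0798), Mvd (−0.06 ± 0.107) and Ggps1 (0.13 ± 0.112) were not called. Of the genes that make squalene and lanosterol, Fdft1 rose by 0.18 ± 0.0476 and Sqle stood at 0.03 ± 0.0444. Lss rose by 0.16 ± 0.0613 (adjusted p = 0.0290, or 0.241 without WT 2 and 0.165 without tKO 8).

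Of the late genes in tKO, Msmo1 rose by 0.36 ± 0.0429 and Sc5d by 0.34 ± 0.0428 (adjusted p = 1.04e-10). Sc5d read 226, 213 and 221 CPM in WT, 231, 237 and 241 in dKO and 286, 263 and 288 in tKO. Its tKO values were above those of both other groups. Tm7sf2 read 39.5, 40.2 and 37.8 CPM in tKO and fell by 0.69 ± 0.0667 (adjusted p = 4.90e-15), the largest change of the 26 in that comparison, at 1.61-fold. Ebp fell by 0.51 ± 0.0561 and Nsdhl by 0.19 ± 0.0556. Cyp51 read 253, 248 and 249 CPM in tKO against 255, 235 and 249 in WT, a difference of 0.02 ± 0.0423. Dhcr7 at 0.12 ± 0.0584 (adjusted p = 0.0786) and Hsd17b7 at −0.02 ± 0.0725 were not called.

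Of the regulators in tKO, Srebf2 read 135, 146 and 141 CPM and rose by 0.17 ± 0.0489 (adjusted p = 0.00290). Insig1 read 322, 288 and 294 CPM, across the WT range, with a difference of −0.01 ± 0.0431. Insig2 rose by 0.23 ± 0.0506 and Mbtps1 by 0.26 ± 0.0601. Scap read 140, 145 and 141 CPM in WT, 146, 139 and 150 in dKO and 111, 126 and 125 in tKO, and fell by 0.23 ± 0.0499 (adjusted p = 6.99e-05). Mbtps2 (−0.07 ± 0.0812) and Stard4 (−0.10 ± 0.0685) were not called.

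**Figure D5:**
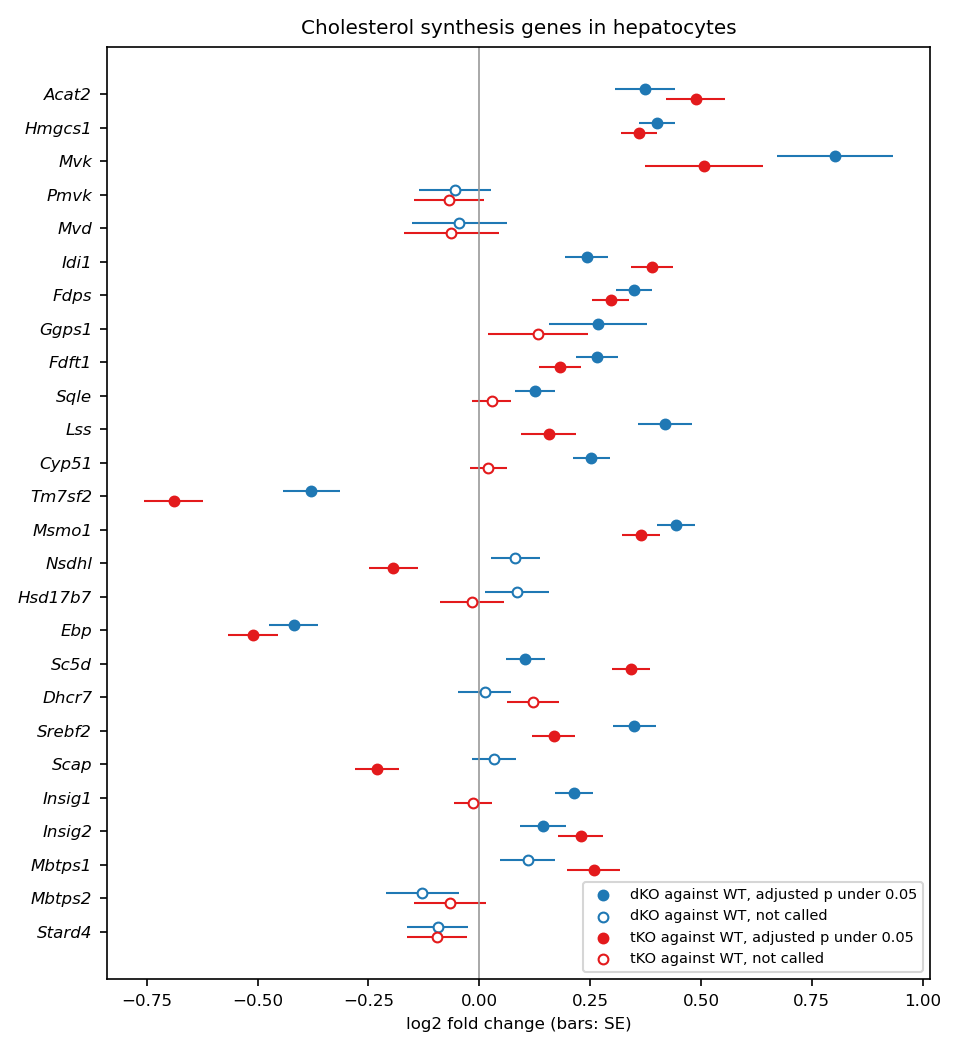
Log2 fold change of each gene in dKO (blue) and tKO (red) against the same 3 WT hepatocyte libraries, with bars for the SE from edgeR, filled where the adjusted p was under 0.05. Most points lie between 0 and 0.5, Tm7sf2 and Ebp lie below 0 in both, and Cyp51, Insig1 and Sqle are filled in dKO only.

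The direct comparison of tKO with dKO, whose labels differ in Smsr alone, showed where the groups differed. Of the 26 members 3 were higher and 7 lower in tKO (38.5% called), where 29.5% of all genes were called, 14.3% higher and 15.2% lower. Groups did not overlap for 3 members higher and 11 lower, against 19.6% and 20.2% of all genes. With the dispersion of the liver libraries 0 members were called, where 2.84% of all genes were. Lower in tKO were Cyp51 (−0.23 ± 0.0418, adjusted p = 4.88e-06), Insig1 (−0.23 ± 0.0427), Lss (−0.26 ± 0.0588), Srebf2 (−0.18 ± 0.0476), Scap (−0.26 ± 0.0497), Nsdhl (−0.28 ± 0.0551) and Tm7sf2 (−0.31 ± 0.0692). Higher in tKO were Sc5d (0.24 ± 0.0425, adjusted p = 4.31e-06), Idi1 (0.15 ± 0.0465, adjusted p = 0.0101) and Mbtps1 (0.15 ± 0.0594, adjusted p = 0.0489). The Mbtps1 call was lost without WT 2, dKO 4, dKO 5, dKO 6, tKO 8 or tKO 9. Without dKO 5 the adjusted p was 0.0511 for Idi1 and 0.130 for Mbtps1, which left 1 member higher, and without tKO 7 it was 0.143 for Idi1. Hmgcs1 (−0.04 ± 0.0397), Fdps (−0.05 ± 0.0406), Msmo1 (−0.08 ± 0.0419) and Acat2 (0.11 ± 0.0645) were not called between the knockouts.

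Related gene lists are given beside the share of all genes called, 44.0% in dKO and 47.4% in tKO. Of 10 genes of lipogenesis under SREBP1, 8 fell and 1 rose in dKO (90% called), with the fatty acid elongase gene Elovl6 at −1.20 ± 0.0670, the acetyl-CoA carboxylase genes Acaca at −1.04 ± 0.0531 and Acacb at −0.42 ± 0.0561, and the desaturase gene Scd1 at −0.86 ± 0.0433. The 1 that rose was Srebf1, by 0.37 ± 0.0496, named after its value was seen. In tKO 4 of the 10 fell and 3 rose (70% called), and Acaca was 1.09 ± 0.0527 and Scd1 0.81 ± 0.0433 higher in tKO than in dKO. Of 8 electron donors and partners of the sterol enzymes, 0 rose and 3 fell in dKO (37.5% called), and 1 rose and 5 fell in tKO (75% called). Of 14 genes of the isoprenoid branches, 0 rose and 5 fell in dKO and 2 rose and 3 fell in tKO (35.7% called in each, below the share of all genes), and the prenylcysteine methyltransferase gene Icmt fell by 0.27 ± 0.0564 and 0.26 ± 0.0561. Of 11 genes of sterol sensing and degradation, 2 rose and 4 fell in dKO (54.5% called) and 6 rose and 3 fell in tKO (81.8% called), with the ubiquitin ligase gene Rnf145 up by 0.47 ± 0.0671 and 0.63 ± 0.0657. Of 9 other measured sterol-responsive genes, 3 rose and 5 fell in dKO (88.9% called) and 1 rose and 4 fell in tKO (55.6% called), with the ATP citrate lyase gene Acly at −0.61 ± 0.0402 and −0.13 ± 0.0393.

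Markers of other cells moved with the hepatocyte groups. Summed over 8 endothelial markers, WT read 22.6 to 23.9 CPM, dKO 145 to 161 and tKO 84.5 to 88.2. The sum of 8 macrophage markers was 121 to 136, 317 to 335 and 364 to 384 CPM, and that of 8 stellate cell markers 15.8 to 19.7, 50.4 to 55.9 and 31.9 to 36.0. By edgeR 8 of 8 endothelial, 3 of 3 tested macrophage and 3 of 4 tested stellate cell genes rose in dKO, and 7, 3 and 3 in tKO. Of all genes, 24.0% rose in dKO and 25.6% in tKO. The remaining macrophage and stellate cell markers did not pass the filter on low counts. A gene may pass that filter through the knockouts alone, so these counts cannot serve as a separate test of a rise. Of 5 cholangiocyte markers, 3 were tested, of which 1 rose in dKO and 1 rose and 1 fell in tKO. The sum of 8 hepatocyte markers was 60807 to 62534 CPM in WT, 52786 to 53724 in dKO and 47103 to 48915 in tKO. Gene by gene they split: 1 rose and 3 fell in dKO (50% called, against 44.0% of all genes). In tKO 1 rose and 4 fell (62.5% called, against 47.4% of all genes). Lymphocyte markers summed to at most 1.58 CPM and adipocyte markers to at most 0.107, and erythroid markers to 4.71 to 9.76. The part of these cells in the changes of the 26 genes was not tested.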

How the data were processed

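The 26 genes and all companion gene lists were chosen with earlier results of these data known. Per the file headers, the authors deposited whole-number counts per Ensembl gene for liver, with a TPM table that the counts and lengths reproduced within 5e-05. For hepatocytes the authors deposited expected counts per Entrez gene and FPKM values; 6.25% of the expected counts were not whole, all were rounded, and an unlisted gene was given 0. Per the submitters' processing notes, the tools were STAR 2.5.2b, Bowtie2 2.2.5, Trimmomatic 0.36 and DESeq2 1.30.1, with builds mm10 and GRCm38. Their roles in each table, the counter and the strand setting are not given in these sources.

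Groups came from the labels. Counts were tested with edgeR 4.0.16 (R 4.3.3; robust quasi-likelihood F test, filterByExpr with a minimum count of 10, TMM scaling), with 1 fit of the 8 liver and 1 of the 9 hepatocyte libraries. P-values were adjusted by Benjamini-Hochberg over all genes with a threshold of 0.05, and the SE is the fold change over the root of F. CPM are TMM-scaled; sums over lists use library totals. The procedure was tested on simulated data. Alternatives were library totals alone, RLE factors, no filter, DESeq2 1.42.0, limma 3.58.1 on log2(value + 0.1) and log2(value + 1), fits of the 2 groups alone, the liver dispersion for hepatocytes (likelihood ratio test), and each library left out. All members were named by role, with up to 4 genes of smallest p from each other list.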

Additional observations from a re-analysis of the deposited data

Results flagged for a closer look

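Of 52 liver groups of 4 libraries (26 genes in WT and in SMSrKO), 8 held a library whose gap to the others, as a share of the group's range, exceeded Dixon's 95% critical value, where chance flags about 1 in 20 groups. The hepatocyte groups of 3 were not examined in that way. All 26 genes were read in the same liver libraries, so the flags are not independent and their number cannot be judged against that rate. Library WT 1 was the high one in 7 of the 8, for genes from the isoprenoid steps to the last reduction and for the SREBP2 brake Insig1. Its values were 25.4 CPM for Pmvk (others 8.15 to 9.90), 15.6 for Mvd (2.88 to 3.65), 37.1 for Fdps (6.06 to 9.48), 59.3 for Lss (16.7 to 21.8), 22.2 for Cyp51 (10.3 to 12.1), 52.7 for Dhcr7 (13.5 to 19.3) and 522 for Insig1 (48.8 to 105). The remaining 1 was a low value of Dhcr7 in SMSrKO 8, 9.97 CPM against 11.4 to 11.5 in the other SMSrKO libraries.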

How the results depend on the processing

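No member reversed its called direction under any alternative run. In liver, 0 members were called higher or lower under all settings except DESeq2, which called 1 lower (Msmo1), and 0 were called with any single library left out. With the liver dispersion, dKO against WT gave 1 higher and 0 lower, tKO against WT 0 and 1, and tKO against dKO 0 and 0. Leaving out each library in turn gave 11 to 15 higher and 2 lower in dKO against WT, 11 to 13 higher and 4 to 5 lower in tKO against WT, and 1 to 3 higher (1 without dKO 5) and 7 to 9 lower in tKO against dKO. In those fits 38.9% to 45.4%, 42.0% to 47.5% and 24.4% to 28.9% of all genes were called in the 3 comparisons in turn, and 0.0690% to 0.682% in liver. Apart from the liver dispersion, 13 of 17 calls held in every alternative run in dKO against WT (not Sqle, Sc5d, Insig2 and Ggps1), 15 of 16 in tKO against WT (not Lss) and 8 of 10 in tKO against dKO (not Idi1 and Mbtps1). Gained under some setting were 2 members in tKO against WT (Dhcr7 and Stard4) and 4 in tKO against dKO (Mvk, Sqle, Msmo1 and Dhcr7). The cause of these shifts was not tested. No paired analysis was possible because the groups compared share no replicate numbers. The SE of a liver fold change reached 0.713 on the log2 scale (Insig1), so a difference of the size seen for it in hepatocytes was not detectable there.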

Other observations

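Genes that handle cholesterol after it is made were read in hepatocytes beside the share of all genes called, 44.0% in dKO and 47.4% in tKO. Of 8 genes of LXR and efflux, 5 rose and 1 fell in dKO (75% called), and 2 rose and 3 fell in tKO (62.5% called). The exporter gene Abcg1 rose by 2.496 ± 0.391 log2 in dKO and 1.89 ± 0.424 in tKO, and Mylip, whose product degrades lipoprotein receptors, by 3.25 ± 0.443 and 2.51 ± 0.492. Abca1, the exporter that loads apolipoprotein A-I, rose by 0.17 ± 0.0432 in dKO and fell by 0.19 ± 0.0438 in tKO. The SE was far larger for Abcg1 and Mylip than for Abca1, so the size of their rises is less certain. Of 14 genes of uptake, trafficking and esterification, 7 rose and 1 fell in dKO (57.1% called) and 7 rose and 3 fell in tKO (71.4% called). The lysosomal sterol carrier gene Npc2 rose by 0.57 ± 0.0560 and 0.78 ± 0.0549. Vldlr, a lipoprotein receptor gene, rose by 0.47 ± 0.0657 in dKO and fell by 0.81 ± 0.0744 in tKO. Of 9 measured genes from sterol to bile acids and oxysterols, 2 rose and 4 fell in dKO (66.7% called) and 3 rose and 4 fell in tKO (77.8% called), with the sterol 12-hydroxylase gene Cyp8b1 at −1.68 ± 0.167 and −2.46 ± 0.184 and Cyp7b1 at −1.18 ± 0.0952 and −1.05 ± 0.0927. Macrophages also express several of these genes, and macrophage markers were higher in both knockouts; their part in these values was not tested.

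In liver, 0 genes of these 3 lists passed the adjusted edgeR test with all libraries or without WT 1. With all libraries, 3 genes had an unadjusted edgeR p under 0.05, 1 lower and 2 higher, all in uptake and trafficking. Of all 15820 genes, 13.1% were under that p in either direction. The list medians were 0.04, −0.01 and 0.17 log2. Clock genes summed to 879 to 975 CPM in WT liver and 1093 to 1159 in SMSrKO, with 0 of 12 called with all libraries and 1, Dbp, higher by 0.54 ± 0.0914 without WT 1. In hepatocytes 7 of 12 clock genes rose and 2 fell in dKO (75% called, against 44.0% of all genes) and 5 rose and 2 fell in tKO (58.3%, against 47.4%), with Nr1d1 up by 0.99 ± 0.0677 and 0.92 ± 0.0678. The hour of collection is not given in these sources.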
